A study of Homo sapiens with 24 samples.

Results

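The 9 genes described here are 8 protein arginine methyltransferases, PRMT1, PRMT2, PRMT3, PRMT5, PRMT6, PRMT7, PRMT9, and CARM1, and WDR77, the WD-repeat partner of PRMT5. They were taken by gene symbol from the 26645 gene entries of the count table. All 9 were among the 14741 genes that passed the expression filter and were tested. RNA came from 24 libraries in 8 groups of 3. MB468 (MDA-MB-468) is a human metastatic breast epithelial cell line whose proliferation depends on methionine (Met). MB468res-R8 is a single clone obtained from it by prolonged culture with homocysteine (Hcy) in place of Met. Each line was collected from Met+ medium with 100 µM Met (0 h) and 0.5, 2, and 12 h after a switch to Met-Hcy+ medium with 370 µM DL-homocysteine and no Met, and all media held dialyzed serum, vitamin B12, glutamine, and cysteine. Cells held in Met+ medium for 12 h were not sampled, and the effects of the medium and of time since the switch cannot be told apart. The 3 libraries of a group are separate samples of a cell line that may differ only technically, and p-values measure the spread between them.

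Arginine methyltransferases move a methyl group from S-adenosylmethionine (SAM), the product of Met and ATP, to the guanidino nitrogens of arginine in proteins, and they release S-adenosylhomocysteine (SAH). Type I enzymes (PRMT1, PRMT2, PRMT3, CARM1, PRMT6, and the brain enzyme PRMT8) leave asymmetric dimethylarginine. Type II enzymes (PRMT5 and PRMT9) leave symmetric dimethylarginine, and the type III enzyme PRMT7 leaves monomethylarginine. Their substrates include histone tails, Sm proteins of the spliceosome, and RNA-binding proteins with glycine- and arginine-rich stretches.

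Gene counts summed to 11713037 to 36402932 per library, with a median of 20452797, and spike-in RNAs made up 0.201 to 0.303% of all counts. Summed CPM (counts scaled to a common library total) of epithelial markers (EPCAM, CDH1, KRT8, KRT18, and KRT19) ranged from 2610 to 6240, and those of basal breast markers (EGFR, KRT5, KRT6B, KRT16, and KRT17) from 5210 to 8730. Hormone receptor genes reached at most 22.6 CPM. Fibroblast markers summed to 14.7 to 73.4 CPM, nearly all of it COL1A1, leukocyte markers to 21.3 to 159 CPM, nearly all of it CD14, and endothelial markers to 0.59 to 5.9 CPM, while COL1A2, DCN, PTPRC, and CD3E stayed at or below 0.199 CPM. Replicate 2 of MB468 at 2 h stood apart with 8251 counts of RN7SK, a small nuclear RNA, against 44 to 357 in the other 23 libraries.

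The promoters of 4 genes are shown first, and the 4 were chosen after their 12 h results were seen. WDR77, PRMT5, and PRMT3 rose in MB468res-R8, as WDR77 and PRMT3 also did in MB468, and PRMT6 rose most in MB468. Each runs from 250 bases before to 50 bases after the RefSeq start site on GRCh38.p14, 5′ to 3′ in the direction of the gene. Capitals mark the E-box CACGTG, which reads the same on both strands.
WDR77, chr1:111449207-111449506, minus strand: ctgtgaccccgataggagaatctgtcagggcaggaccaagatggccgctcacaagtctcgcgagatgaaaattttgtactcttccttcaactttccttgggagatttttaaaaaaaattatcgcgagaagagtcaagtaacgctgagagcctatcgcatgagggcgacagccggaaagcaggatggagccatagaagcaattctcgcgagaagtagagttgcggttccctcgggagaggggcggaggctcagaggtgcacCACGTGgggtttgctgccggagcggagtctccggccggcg
PRMT5, chr14:22929327-22929626, minus strand: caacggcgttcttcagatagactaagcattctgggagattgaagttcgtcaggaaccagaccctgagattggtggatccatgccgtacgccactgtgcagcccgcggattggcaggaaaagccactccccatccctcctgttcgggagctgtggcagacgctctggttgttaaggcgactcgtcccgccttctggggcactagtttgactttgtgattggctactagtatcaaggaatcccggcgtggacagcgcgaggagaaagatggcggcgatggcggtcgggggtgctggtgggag
PRMT3, chr11:20387466-20387765, plus strand: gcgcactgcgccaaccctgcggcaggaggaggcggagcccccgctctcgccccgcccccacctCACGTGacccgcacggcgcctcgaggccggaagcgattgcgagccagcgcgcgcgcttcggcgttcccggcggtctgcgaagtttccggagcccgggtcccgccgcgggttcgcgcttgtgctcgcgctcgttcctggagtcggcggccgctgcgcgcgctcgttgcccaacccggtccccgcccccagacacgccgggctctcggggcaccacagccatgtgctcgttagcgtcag
PRMT6, chr1:107056424-107056723, plus strand: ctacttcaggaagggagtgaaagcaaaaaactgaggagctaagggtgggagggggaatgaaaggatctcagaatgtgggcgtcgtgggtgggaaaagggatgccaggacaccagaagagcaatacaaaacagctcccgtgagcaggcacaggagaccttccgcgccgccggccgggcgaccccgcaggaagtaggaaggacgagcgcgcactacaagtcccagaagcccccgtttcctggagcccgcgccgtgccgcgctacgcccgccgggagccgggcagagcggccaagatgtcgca
CACGTG, the core sequence recognized by MYC, MAX, and related factors, was found in WDR77 at bases 261 to 266 and in PRMT3 at bases 64 to 69. It was in 2 of the 11 promoter windows of the 9 genes and in 7.26% of all 35116 windows. TGATGNAA, the core of the element recognized by ATF4 with C/EBP partners, was searched on both strands and was in none of the 11 windows and in 3.62% of all. These are matches of letters and not measured binding, and any part of the motif in the changes was not tested.

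On the scale of level per length (CPM per kb of the GENCODE canonical transcript), PRMT1, the main source of asymmetric dimethylarginine in most cells, stood far above the other members. In MB468 at 0 h it was at 172 ± 5.28 (SD, n = 3) and made up 42.9 ± 0.995% of the 9 genes' summed level. PRMT2 (58.9 ± 0.492), PRMT5 (49.4 ± 2.03), WDR77 (43.4 ± 2.02), and CARM1 (42.0 ± 0.595) formed a middle group (n = 3), in which WDR77 and CARM1 were not separated by their spread. PRMT6 (14.4 ± 0.433), PRMT7 (8.70 ± 0.117), PRMT3 (8.27 ± 0.125), and PRMT9 (3.87 ± 0.381) were low (n = 3). MB468res-R8 cells at 0 h also had PRMT1 highest, at 160 ± 5.89 and 41.7 ± 0.846% of the sum, and PRMT9 lowest, at 4.54 ± 0.854 (n = 3), and there PRMT3 (9.41 ± 0.778) and PRMT7 (8.63 ± 0.316) overlapped. The canonical transcript of PRMT1 is the shortest, at 1328 bases against 2304 to 3738, so the size of its lead depends on the lengths used. By CPM without length, PRMT1 was at 237, 223, and 227 in MB468 at 0 h. PRMT2 and CARM1 were at 136.6 to 140.5 there. PRMT8 had 0 counts in all 24 libraries, and a count of 0 allows up to 3 counts per library, or 0.0824 to 0.256 CPM by depth (counting error only).

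**Figure D1:**
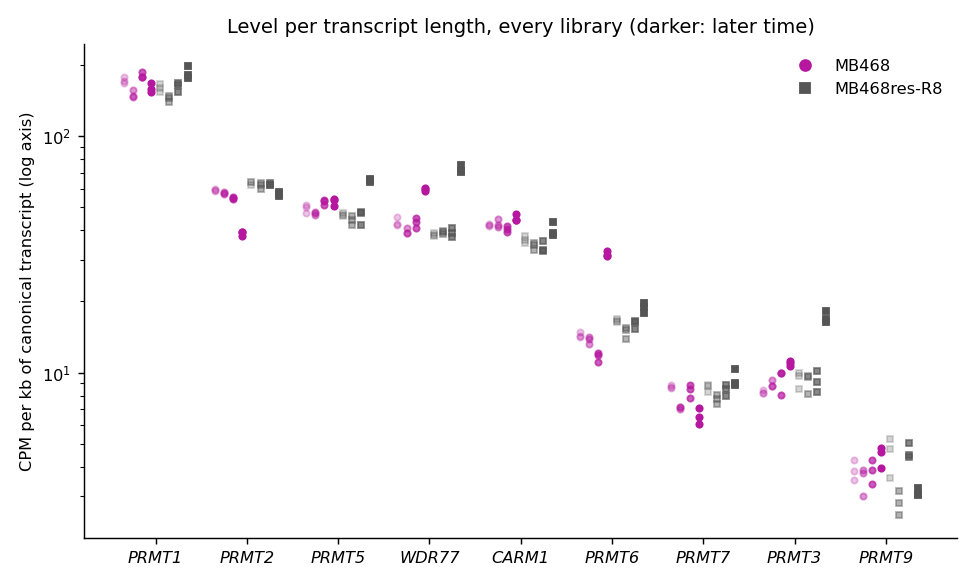
Level of each gene in CPM per kb of canonical transcript on a log axis, with a point per library (MB468 as circles and MB468res-R8 as squares, and darker for later times). PRMT1 is highest in every library, and PRMT6 in MB468 at 12 h moves from 14.4 to 31.7 CPM per kb.

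The 9 genes summed to 401 ± 5.80 CPM per kb in MB468 at 0 h and to 410 ± 11.4 at 12 h (SD, n = 3, exact two-sided permutation p = 0.4). In MB468res-R8 the sum was 384 ± 6.35 at 0 h and 468 ± 16.8 at 12 h, and the groups did not overlap (n = 3, exact two-sided permutation p = 0.1, the smallest that 3 against 3 allows). WDR77, a partner and not a methyltransferase, is counted in this sum and went from 38.3 ± 0.464 to 72.5 ± 2.69 there (SD, n = 3). At 0.5 h the sums were the lowest of each line, at 371 ± 7.80 in MB468 and, for MB468res-R8, 358 ± 6.68 (SD, n = 3). All these sums use library totals adjusted by TMM. With spike-in totals as library sizes, the median of all genes moved by −0.21, −0.42, and −0.24 (log2) in MB468 at 0.5, 2, and 12 h. The comparisons between MB468 sums are therefore given for TMM scaling only.

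Gene positions are given on GRCh38 as GENCODE v44 lists them. PRMT1 lies on chr19:49675786-49689029 and CARM1 on chr19:10871553-10923075, both on the plus strand. PRMT2 is on chr21:46635595-46665124, PRMT3 on chr11:20387558-20509338, and PRMT7 on chr16:68310951-68360852, all on the plus strand, and PRMT5 is on chr14:22920525-22929408 on the minus strand. PRMT9 is on chr4:147637785-147684163 and WDR77 on chr1:111439890-111449256, both on the minus strand, and PRMT6 is on chr1:107056674-107067636 on the plus strand with a canonical transcript of 1 exon. The library kit does not mark strand, and reads where genes overlap cannot be told apart. PRMT5-AS1 overlaps 38.8% of the canonical exons of PRMT5 on the other strand and had at most 6 counts in any library, YIPF2 overlaps 27.0% of those of CARM1, and the same-strand gene ENSG00000243960 overlaps 27.4% of those of WDR77. The levels per length of PRMT5, CARM1, and WDR77 given above carry this limit.

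The values below are normalized counts, that is, raw counts scaled by TMM to the mean effective library size. In Met+ medium at 0 h the lines differed modestly, and none of the 9 genes differed 2-fold, as 9.62% of all genes did. Of the 9 genes, 5 passed the test, 2 higher and 3 lower in MB468res-R8, against 53.5% of all tested genes (26.4% higher and 27.1% lower). CARM1, a coactivator-associated methyltransferase of histone H3, was at 2715, 2822, and 2639 in MB468res-R8 and at 3144, 3196, and 3108 in MB468. The groups did not overlap, and the log2 fold change was −0.21 (SE 0.0475, edgeR adjusted p = 0.00027). WDR77 was at 2113, 2140, and 2165 against 2383, 2554, and 2341, again without overlap (log2 fold change −0.18, SE 0.0448, edgeR adjusted p = 0.000595). PRMT6, which methylates an arginine near the tip of histone H3, was higher in MB468res-R8, at 1005, 989, and 972 against 890.1, 853, and 840.4 (log2 fold change 0.20, SE 0.0567, edgeR adjusted p = 0.00315). PRMT2 (0.11, SE 0.0370) and PRMT1 (−0.11, SE 0.0442) also passed, with edgeR adjusted p of 0.0144 and 0.042. With spike-in totals as library sizes, which moved the median of all genes by −0.31 in this comparison, PRMT2, PRMT3, PRMT6, and PRMT9 came out lower in MB468res-R8 (log2 fold changes −0.20, −0.12, −0.11, and −0.08) and none of these 4 passed. The other 5 passed as lower, beside 7.76% of all genes higher and 44.1% lower with that scaling.

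Several of the smaller 0 h differences rested on single libraries. The call of PRMT1 was lost without replicate 1 of MB468 (−0.08) and without replicate 2 (−0.10) or replicate 3 (−0.08) of MB468res-R8, and that of PRMT2 without replicate 1 of MB468res-R8 (0.09) and in 4 of 5 random thinnings of all libraries to equal depth (0.08 to 0.10). PRMT6 lost its call in 2 of the 5 thinnings (0.06 and 0.15). PRMT3 (0.19, edgeR adjusted p = 0.0545) passed without replicate 2 of MB468res-R8 (0.25). PRMT9 (0.24, edgeR adjusted p = 0.0756) passed without replicate 2 of MB468 (0.32) or replicate 3 of MB468res-R8 (0.37), and PRMT5 (−0.09, edgeR adjusted p = 0.108) without replicate 3 of MB468 (−0.13). PRMT7 differed by −0.01 (95% interval −0.15 to 0.12).

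**Figure D2:**
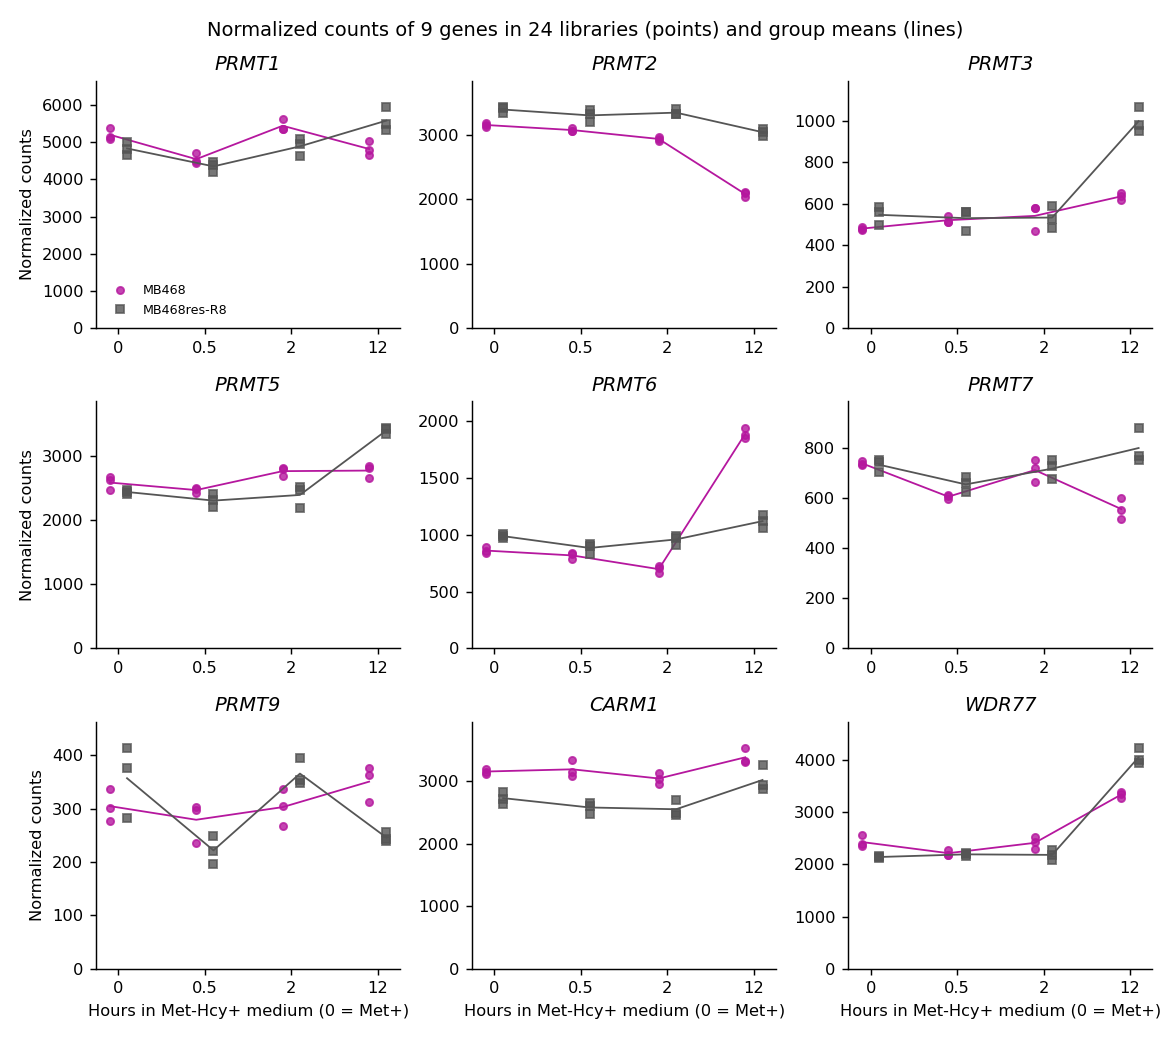
Normalized counts of the 9 genes (vertical axes from 0) against hours in Met-Hcy+ medium, with a point per library and lines through the means of 3 (MB468 as circles and MB468res-R8 as squares). PRMT6 and PRMT2 move most at 12 h in MB468, WDR77 and PRMT3 in MB468res-R8, and PRMT9 dips at 0.5 h in MB468res-R8.

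The early time points show how soon these genes changed after the switch to Met-Hcy+ medium. At 0.5 h 3 of the 9 genes were lower in MB468 (33.9% of all genes called, 17.6% higher and 16.4% lower), 3 were lower in MB468res-R8 (33.7%, 17.4% higher and 16.3% lower), and none was higher in either line. With spike-in totals the shares of all genes in MB468 were 3.11% higher and 19.2% lower. PRMT1 went from 5384, 5078, and 5157 at 0 h to 4440, 4485, and 4717 in MB468 (log2 fold change −0.20, SE 0.0446, edgeR adjusted p = 0.000458). In MB468res-R8 PRMT1 went from 5021, 4821, and 4665 to 4468, 4211, and 4379 (−0.15, SE 0.0446, edgeR adjusted p = 0.00646). The 0.5 h libraries lay below the 0 h libraries in both lines, and at 2 h PRMT1 was back at 5447 ± 158 (MB468) and 4892 ± 239 (MB468res-R8) (SD, n = 3). In MB468 this return holds for TMM scaling only. With spike-in totals, which moved the median of all genes by −0.42 in MB468 at 2 h, PRMT1 was called lower there.

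In MB468 PRMT7 also fell at 0.5 h, from 751, 732, and 738 to 609, 599, and 612 (log2 fold change −0.29, SE 0.0707, edgeR adjusted p = 0.00122), and was at 713 ± 44.4 at 2 h (SD, n = 3). With spike-in totals PRMT7 was called lower in MB468 at 2 h. WDR77 fell by 0.14 on the log2 scale (SE 0.0451, edgeR adjusted p = 0.0148), a call that was lost without replicate 2 of the 0 h group (−0.10) and in 2 of the 5 thinnings (−0.13 and −0.12). In MB468res-R8 PRMT6 fell by 0.17 (SE 0.0570, edgeR adjusted p = 0.0218), and this call was lost without replicate 1 of the 0 h group (−0.16) or replicate 1 of the 0.5 h group (−0.12), without the low-count filter (−0.16, edgeR adjusted p = 0.058), in 3 of the 5 thinnings (−0.06 to −0.15), and with spike-in totals, which also ended that of PRMT1 (13.7% of all genes called with that scaling).

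PRMT9, a type II enzyme known to methylate a splicing factor, had the largest early change. In MB468res-R8 it went from 413, 376, and 282 at 0 h to 196, 222, and 248 at 0.5 h, and was at 348, 355, and 395 at 2 h. Every 0.5 h library lay below every 0 h and 2 h library (0.5 h against 0 h, log2 fold change −0.71, SE 0.119, edgeR adjusted p = 7.54e-06). These values rest on 183 to 225 counts per library at 0.5 h and 216 to 521 at 0 h. In MB468 PRMT9 was at 276, 336, and 302 at 0 h and at 297, 304, and 237 at 0.5 h, which overlap (−0.11, SE 0.118, edgeR adjusted p = 0.533). The response differed between the lines by −0.60 (SE 0.167, edgeR adjusted p = 0.0375), as it did for 2.9% of all genes (1.7% in this direction). Leaving out any of 8 of the 12 libraries ended this call, with differences of −0.47 to −0.60 and edgeR adjusted p of 0.0768 to 0.197. These libraries were replicates 1 and 3 of MB468 at 0 h, and replicates 1 and 2 of MB468res-R8 at 0 h and of both lines at 0.5 h. The call was also lost in all 5 thinnings (−0.44 to −0.62) and with spike-in totals (−0.34).

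By 2 h 1 of the 9 genes had changed in MB468 (16.3% of all genes called, 7.47% lower) and 0 in MB468res-R8 (4.37% of all genes called by edgeR), where 0 were also under an unadjusted p of 0.05 and 0 were called by DESeq2. The gene was PRMT6, which fell from 890.1, 853, and 840.4 to 709, 661, and 724 (log2 fold change −0.30, SE 0.0607, edgeR adjusted p = 0.000271). Without replicate 2 of the 2 h group, the library rich in RN7SK, the fall was −0.27 (edgeR adjusted p = 0.00358) and still passed. In MB468res-R8 PRMT6 at 2 h was at 971, 914, and 993 against 1005, 989, and 972 (−0.05, SE 0.0563). The difference between the lines, 0.25 (95% interval 0.09 to 0.41, edgeR adjusted p = 0.0702), did not pass except with spike-in totals (0.64) and in 2 of 5 thinnings to equal depth (0.46 and 0.34), and none of the other 8 passed (5.07% of all genes called). In MB468 at 2 h PRMT2 (−0.10, edgeR adjusted p = 0.0589) passed with DESeq2 (−0.11, DESeq2 adjusted p = 0.0145), and PRMT3 (0.17, edgeR adjusted p = 0.198) passed without replicate 1 of the 2 h group (0.27). With spike-in totals all 9 genes were lower in MB468 at 2 h and 8 passed, where that scaling moved the median of all genes by −0.42 and called 62.9% of all genes lower and 1.63% higher. PRMT3, at −0.25, did not pass.

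At 12 h the lines differed in which of these genes changed. In MB468 3 of the 9 rose (PRMT6, WDR77, and PRMT3), 3 fell (PRMT2, PRMT7, and PRMT1), and 3 did not pass (PRMT5, PRMT9, and CARM1), against 70.8% of all genes called, 36.1% higher and 34.7% lower. In MB468res-R8 6 rose (WDR77, PRMT3, PRMT5, PRMT1, PRMT6, and CARM1), 2 fell (PRMT9 and PRMT2), and PRMT7 did not pass, against 61.3% of all genes called, 30.2% higher and 31.1% lower. The response differed between the lines for 8 of the 9 genes, 6 with a higher and 2 with a lower log2 fold change in MB468res-R8, against 56.5% of all genes (26.2% higher and 30.3% lower). CARM1 was the exception. Their median log2 fold change was 0.10 in MB468 and 0.18 in MB468res-R8, beside 0.01 and −0.02 over all tested genes. The share of the 9 called in MB468 was near that of all genes, and the shares in MB468res-R8 and in the difference were above it. These shares describe 9 chosen genes and carry no test, and what follows is a description of single genes.

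Scaling to spike-in totals ended several of these calls. In MB468 4 of the 9 then passed, 1 higher and 3 lower, beside 17.2% of all genes higher and 40.2% lower. In MB468res-R8 4 passed (39.9% of all genes), and PRMT1 (0.23), PRMT2 (−0.13), PRMT6 (0.20), and CARM1 (0.16) did not. The difference between the lines still passed for 7, 6 higher and 1 lower, beside 27.5% and 11.8% of all genes.

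**Figure D3:**
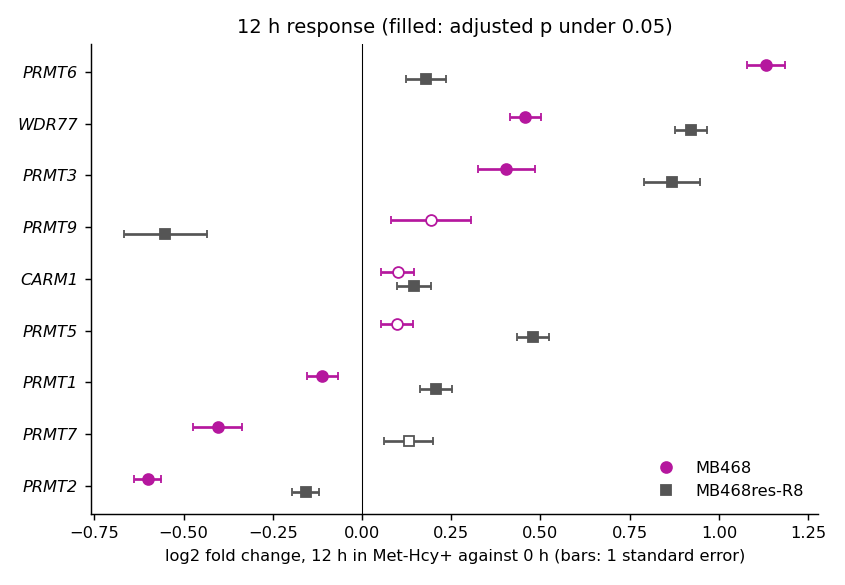
Log2 fold change at 12 h in Met-Hcy+ medium against 0 h, with bars of 1 standard error, for each gene in MB468 (circles) and MB468res-R8 (squares). Filled symbols passed at an edgeR adjusted p under 0.05, and PRMT6 has the widest gap between the lines, 1.13 against 0.18.

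PRMT6 showed the largest change among the type I enzymes. In MB468 it went from 890.1, 853, and 840.4 at 0 h to 1875, 1849.9, and 1941 at 12 h, so that every 12 h library held more than any library of the other 7 groups. The log2 fold change was 1.13 (SE 0.0541, edgeR adjusted p = 2.36e-21), the only one of the 9 genes called and changed at least 2-fold in MB468 at 12 h, as 15.9% of all genes were. In MB468res-R8 it went from 1005, 989, and 972 to 1126, 1176, and 1059 (0.18, SE 0.0556, edgeR adjusted p = 0.00543). The responses differed by −0.95 (SE 0.0775, edgeR adjusted p = 1.12e-13), and PRMT6, which had been higher in MB468res-R8 at 0 h with TMM scaling but not with spike-in totals, was lower there at 12 h under both (−0.76 with TMM, SE 0.0529, edgeR adjusted p = 3.12e-16).

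PRMT2, a type I enzyme with an SH3 domain, moved the other way in MB468. It went from 3133, 3153, and 3184 to 2031, 2113, and 2103 (log2 fold change −0.60, SE 0.0374, edgeR adjusted p = 1.05e-17). In MB468res-R8 it went from 3429, 3342, and 3421 to 2993, 3042, and 3101 (−0.16, SE 0.0370, edgeR adjusted p = 0.000318). The groups did not overlap in either line, and the fall was smaller in MB468res-R8 by 0.44 (SE 0.0526, edgeR adjusted p = 2.1e-09).

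PRMT3, a cytosolic type I enzyme that methylates a protein of the small ribosomal subunit, rose in both lines. It went from 488, 475, and 476 to 619, 652, and 636 in MB468 (0.40, SE 0.0797, edgeR adjusted p = 2.34e-05) and from 562, 496, and 582 to 978, 1065, and 953 in MB468res-R8 (0.87, SE 0.0784, edgeR adjusted p = 1.52e-12). The rise was larger in MB468res-R8 by 0.47 (SE 0.112, edgeR adjusted p = 0.000474). In MB468 the call was lost with spike-in totals (0.17, edgeR adjusted p = 0.31), which moved the median of all genes by −0.24.

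PRMT1, the most abundant of the 9 genes, and CARM1 had log2 fold changes between −0.11 and 0.21 at 12 h. PRMT1 went from 5384, 5078, and 5157 to 4649, 4783, and 5033 in MB468 (−0.11, SE 0.0438, edgeR adjusted p = 0.0235) and from 5021, 4821, and 4665 to 5939.5, 5497, and 5322 in MB468res-R8 (0.21, SE 0.0441, edgeR adjusted p = 9.22e-05). The difference in response was 0.32 (SE 0.0622, edgeR adjusted p = 3.07e-05). The fall in MB468 did not pass without replicate 1 of its 0 h group (−0.09) or of its 12 h group (−0.09). CARM1 was at 3296, 3314, and 3520 in MB468 at 12 h (0.10, edgeR adjusted p = 0.0519) and at 3251, 2930, and 2863 in MB468res-R8 (0.15, edgeR adjusted p = 0.0076, lost without replicate 1 of that group at 0.11). Its responses differed by 0.05 (95% interval −0.08 to 0.18). CARM1 was still lower in MB468res-R8 than in MB468 at 12 h (−0.16, SE 0.0464, edgeR adjusted p = 0.00187), a call lost without replicate 3 of MB468res-R8 at 12 h (−0.09).

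WDR77, which binds PRMT5 and is needed for its activity on histones and Sm proteins, rose more than its partner in both lines. It went from 2383, 2554, and 2341 to 3348, 3275, and 3385 in MB468 (0.46, SE 0.0433, edgeR adjusted p = 2.63e-12) and from 2113, 2140, and 2165 to 4219, 3991, and 3936 in MB468res-R8 (0.92, SE 0.0439, edgeR adjusted p = 7.81e-21). Every 12 h library lay above every earlier library of its line. PRMT5, the main type II enzyme, was at 2621, 2673, and 2469 at 0 h and 2663, 2809.9, and 2851 at 12 h in MB468 (0.10, edgeR adjusted p = 0.0513). It went from 2408, 2473, and 2439.9 to 3441, 3416, and 3347 in MB468res-R8 (0.48, SE 0.0454, edgeR adjusted p = 5.91e-12). Both rose more in MB468res-R8 than in MB468, by 0.46 (SE 0.0615) for WDR77 and by 0.38 (SE 0.0639) for PRMT5, with edgeR adjusted p of 2.57e-08 and 2.46e-06. In MB468 PRMT5 passed without replicate 2 of the 0 h group (0.12) or replicate 1 of the 12 h group (0.12), and with spike-in totals PRMT5 came out at −0.14 and WDR77 at 0.22, neither of which passed.

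The ratio of WDR77 to PRMT5 counts within a library does not depend on how libraries are scaled. It was 0.909 to 0.955 in MB468 at 0 h and 1.165 to 1.257 at 12 h, and 0.865 to 0.888 in MB468res-R8 at 0 h and 1.168 to 1.226 at 12 h. The means were 0.938 ± 0.0248 and 1.20 ± 0.0479 in MB468 and, for MB468res-R8, 0.877 ± 0.0111 and 1.19 ± 0.0315 (SD, n = 3). The 12 h and 0 h ratios did not overlap in either line (exact two-sided permutation p = 0.1, the smallest possible), and at 12 h the lines differed by −0.013 (n = 3 each, exact two-sided permutation p = 0.7). At 0.5 and 2 h the ratios were 0.843 to 0.989 in all 12 libraries.

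**Figure D4:**
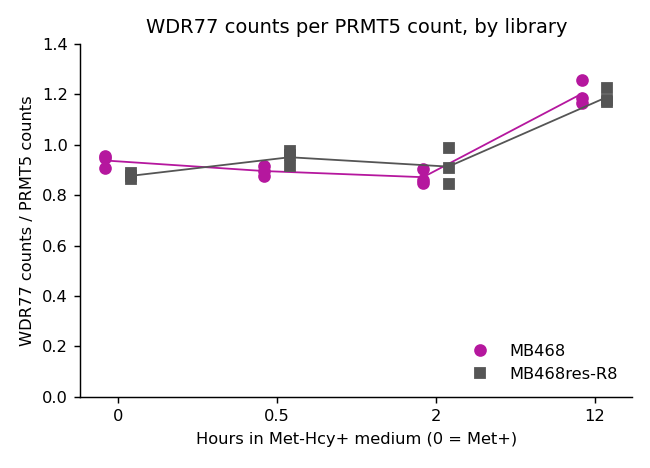
WDR77 counts divided by PRMT5 counts in each library (vertical axis from 0) against hours in Met-Hcy+ medium, with lines through the means of 3. The 6 libraries at 12 h lie between 1.165 and 1.257, above all 18 others.

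PRMT9, the other type II enzyme, fell in MB468res-R8 at 12 h. It went from 413, 376, and 282 to 240, 243, and 256 (−0.55, SE 0.116, edgeR adjusted p = 9.25e-05), and in MB468 it was at 276, 336, and 302 at 0 h and 364, 376, and 312 at 12 h, which overlap (0.19, SE 0.112, edgeR adjusted p = 0.119). The responses differed by −0.75 (SE 0.161, edgeR adjusted p = 0.000143), a call that spike-in totals ended (−0.49, edgeR adjusted p = 0.0635). In MB468 PRMT9 passed without replicate 3 of the 12 h group (0.27), and with spike-in totals its value was −0.03.

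PRMT7, the type III enzyme, fell in MB468 and did not pass in MB468res-R8. It went from 751, 732, and 738 to 554, 516, and 601 in MB468 (−0.40, SE 0.0685, edgeR adjusted p = 1.83e-06). In MB468res-R8 it was at 703, 753, and 747 at 0 h and 882, 752, and 770.3 at 12 h, which overlap (0.13, SE 0.0683, edgeR adjusted p = 0.0963), and it passed there without replicate 2 (0.17) or replicate 3 (0.18) of the 12 h group. The responses differed by 0.53 (SE 0.0967, edgeR adjusted p = 9.12e-06).

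At 12 h all 9 genes differed in level between the lines, 6 higher and 3 lower in MB468res-R8, against 73.1% of all genes (33.9% higher and 39.2% lower). With TMM scaling, the median log2 difference of the 9 genes was 0.28, beside −0.06 over all genes. PRMT3 (0.65, SE 0.0755), PRMT2 (0.55, SE 0.0374), and PRMT7 (0.52, SE 0.0680) were furthest above MB468, and PRMT6 (−0.76) and PRMT9 (−0.51, SE 0.114) furthest below. With spike-in totals 5 of the 9 passed (58.7% of all genes), and PRMT1, PRMT5, WDR77, and CARM1 did not.

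Across the 24 libraries log2 CPM of PRMT5 and WDR77 correlated at a Pearson r of 0.893, PRMT3 and WDR77 at 0.871, PRMT3 and PRMT5 at 0.837, and PRMT2 and PRMT6 at −0.763. These values describe 8 groups of 3 that share a medium, a time, and a scaling, and carry no test. Among the 6390 or 6391 other genes averaging a log2 CPM of 5 or more, the gene most like each member over the 24 libraries was RARRES1 for PRMT2 (r = 0.989), PTDSS1 for WDR77 (0.985), FEN1 for PRMT6 (0.977), BRIX1 for PRMT5 (0.951), GLRX3 for PRMT3 (0.947), PPM1F for CARM1 (0.922), PALLD for PRMT7 (0.896), MCM4 for PRMT1 (0.885), and CTBP2 for PRMT9 (0.832).

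Genes that act with these enzymes were read from lists of partners, substrates, readers, and suppliers of SAM. Their counts at 12 h stand beside 36.1% of all genes higher and 34.7% lower in MB468, 30.2% and 31.1% in MB468res-R8, and 26.2% and 30.3% for the difference between the lines. The PRMT5 partners CLNS1A (pICln), RIOK1, and COPRS, which bring substrates to PRMT5 or place it on chromatin, all rose in MB468res-R8 at 12 h, by log2 fold changes of 0.38 to 0.40. CLNS1A went from 2060.3, 1893, and 2008 to 2615, 2542, and 2621 there, and from 2390.4, 2301, and 2244 to 1859.5, 1858, and 1858 in MB468. In MB468 CLNS1A fell (−0.32, SE 0.0477, edgeR adjusted p = 2e-07), while RIOK1 (0.06) and COPRS (−0.04) did not pass. The response differed for 3 of 3, by 0.70 (SE 0.0677) for CLNS1A, 0.45 (SE 0.107) for COPRS, and 0.33 (SE 0.0598) for RIOK1, with edgeR adjusted p of 1.28e-11, 0.000453, and 8.31e-06. RIOK1, which competes with CLNS1A for the same site on PRMT5, went from 3728, 3581, and 3693 to 3721, 3795, and 3927 in MB468 and from 3141, 3452, and 3098 to 4179, 4332, and 4188 in MB468res-R8. At 2 h RIOK1 was already above every 0 h library in both lines with TMM scaling. It was at 4584 ± 59.9 in MB468 and 3896 ± 142 in MB468res-R8 then (SD, n = 3). COPRS was the lowest of the 3, at 407 to 502 in MB468 at 0 and 12 h, and went from 396 to 421 at 0 h to 501 to 563 at 12 h in MB468res-R8.

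Of 8 tested Sm and other PRMT5 substrates, 1 rose and 6 fell in MB468 at 12 h (median log2 fold change −0.28), and 5 rose and 1 fell in MB468res-R8 (median 0.17). LSM4 (−0.65, SE 0.0460) and SNRPB (−0.34, SE 0.0397) fell most in MB468. The difference between the lines passed for 8 of 8, 7 of them higher in MB468res-R8 (median 0.54, beside −0.05 over all genes), with SNRPD1 (0.77, SE 0.0697) and the splicing factor SRSF1 (0.69, SE 0.0590) largest.

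Of 19 RNA-binding substrates of type I enzymes, 2 rose and 14 fell in MB468 at 12 h (median −0.25), and 14 rose and 1 fell in MB468res-R8 (median 0.36). HNRNPA1, a main nuclear RNA-binding protein and PRMT1 substrate, went from 19195, 20083.5, and 19334 to 9249, 9576, and 9483 in MB468 (−1.05, SE 0.0387, edgeR adjusted p = 4.81e-25). In MB468res-R8 it went from 12436, 11393, and 12504 to 14388, 14568, and 14414 (0.26, SE 0.0385, edgeR adjusted p = 3.14e-07). HNRNPA1 has processed copies elsewhere in the genome with which reads could be shared. EWSR1 fell by 0.74 in MB468 (SE 0.0397), and 17 of the 19 genes had a higher response in MB468res-R8 and 0 a lower one (edgeR, beside 26.2% and 30.3% of all genes), with HNRNPA1 (1.31, SE 0.0546) and RBMX (1.003, SE 0.0555) furthest apart. The 2 that did not pass, TAF15 and PABPN1, were measured at group means of 18.0 to 198 and 86.5 to 139 normalized counts.

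Of the 4 proteins that bind PRMT1, 3 rose in MB468 at 12 h, and 2 rose and 1 fell in MB468res-R8. The difference between the lines passed for 1 as higher and 1 as lower in MB468res-R8. Those that rose in MB468 included TDRD3 (0.73, SE 0.0983) and the antiproliferative BTG2 (0.64, SE 0.147). Its relative BTG1 had the largest difference between the lines (−1.17, SE 0.0697, edgeR adjusted p = 2.08e-17), rising by 0.24 in MB468 and falling by 0.92 in MB468res-R8. Of 8 coactivators and substrates of CARM1, 4 rose and 4 fell in MB468 (median −0.01), with the acetyltransferase CREBBP (1.34, SE 0.0434) and the coactivator NCOA1 (1.10, SE 0.0477) highest. Both had a lower response in MB468res-R8, by −1.06 (SE 0.0619) for CREBBP and −1.08 (SE 0.0681) for NCOA1, and 5 of the 8 rose and 1 fell there.

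**Figure D5:**
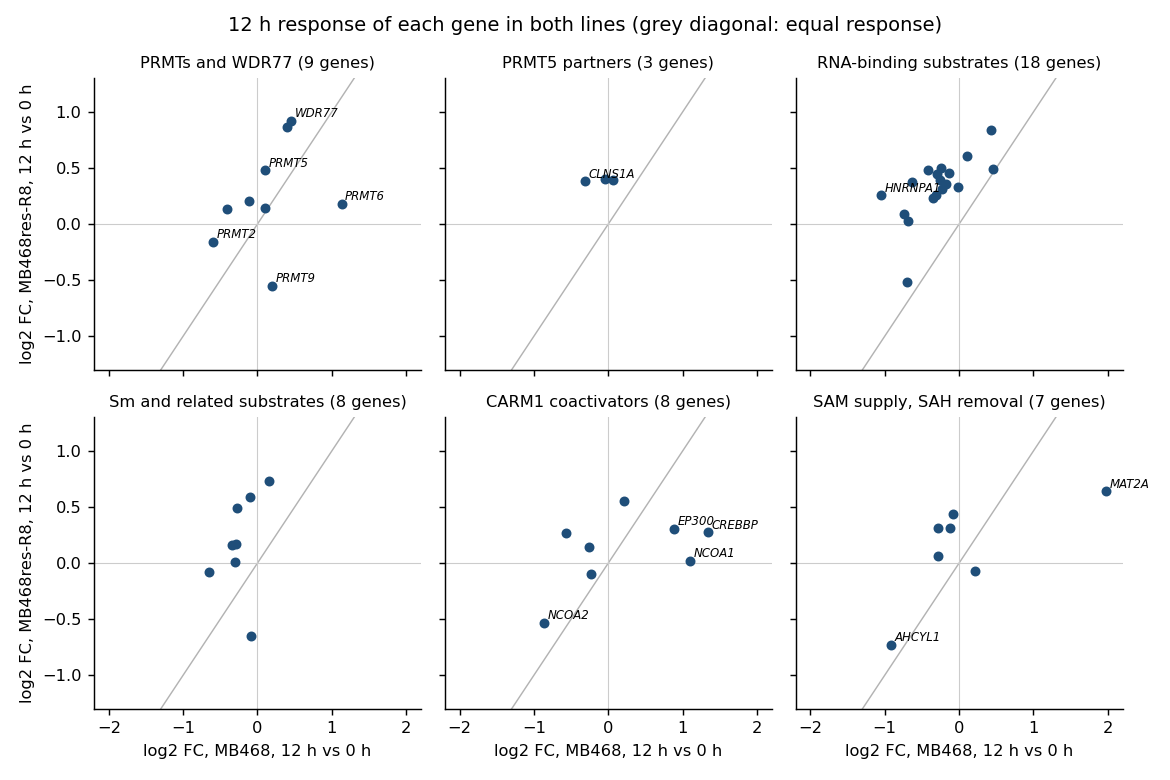
Log2 fold change at 12 h against 0 h in MB468 (horizontal) and MB468res-R8 (vertical), with a point per tested gene of 6 lists and a grey diagonal of equal response. TAF15 is left out for its scattered low counts, and the other 18 RNA-binding substrates lie above the diagonal, while PRMT6, CREBBP, NCOA1, and MAT2A lie far below it.

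Of 4 tested Tudor-domain readers of methylated arginine, 2 rose (TDRD3 and SMNDC1) and 2 fell in MB468 at 12 h, with SND1 lowest (−0.54, SE 0.0374), and the difference between the lines passed for SND1 (0.54, SE 0.0530) and SMNDC1 (0.29, SE 0.0839). For that difference the readers gave 1 to 3 calls over 5 thinnings to equal depth. SMN1 and SMN2, near-identical copies of each other, had 0 counts in all libraries. Among 6 tested genes of arginine demethylation, citrullination, and dimethylarginine breakdown, 1 rose and 3 fell in MB468, with the citrullinating enzymes PADI2 (−1.38, SE 0.0438) and PADI3 (−1.37, SE 0.134) lowest of those that passed, and both fell less in MB468res-R8, by 0.76 (SE 0.0607) and 0.61 (SE 0.168). Of the other arginine methyltransferases, NDUFAF7, which acts on a mitochondrial complex I subunit, fell in MB468 (−0.20, SE 0.0733) and differed by 0.50 (SE 0.105), and METTL23 differed by −0.38 (SE 0.114). Over 5 thinnings to equal depth this list gave 0 to 1 calls in MB468 and 1 to 2 for the difference.

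Genes around the methyl donor were read beside them. MAT2A, which makes SAM, went from 8616, 8652, and 9040.2 to 33863.5, 35287, and 34371 in MB468 at 12 h (1.98, SE 0.0482, edgeR adjusted p = 2.1e-29) and from 9386, 9982, and 8898 to 14029, 14616, and 15453 in MB468res-R8 (0.64, SE 0.0472, edgeR adjusted p = 1.69e-14). AHCY, which removes SAH, an inhibitor of methyltransferases, went from 6321, 6277, and 5895 to 4825, 5174, and 5200.3 in MB468 (−0.28, SE 0.0407, edgeR adjusted p = 6.57e-08). In MB468res-R8 AHCY rose from 5641, 5358, and 5447 to 6945, 6658, and 6887 (0.32, SE 0.0408, edgeR adjusted p = 1.15e-08), a difference of 0.60 (SE 0.0576). MTAP, which breaks down methylthioadenosine, an inhibitor of PRMT5, was detected in both lines, at 1679.7 ± 39.1 (MB468) and 1611 ± 50.5 (MB468res-R8) at 0 h (SD, n = 3). At 12 h it did not pass in MB468 (−0.07, SE 0.0501) and rose in MB468res-R8 (0.44, SE 0.0502, edgeR adjusted p = 8.28e-10). Of the 7 genes of this list, which also holds AHCY-like genes, 2 rose and 4 fell in MB468, and 4 rose and 1 fell in MB468res-R8. Furthest down in MB468 was AHCYL1 (−0.92, SE 0.0393), an AHCY-like gene and not AHCY itself. At 2 h 1 of the 7 had already risen and 1 had fallen in MB468, beside 8.88% and 7.47% of all genes. In MB468res-R8 1 had risen, beside 2.52%. The highest log2 fold changes of the list at 2 h were 1.06 in MB468 and 0.90 in MB468res-R8. For the 2 h difference between the lines 0 of the 7 passed, beside 5.07% of all genes.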

How the data were processed

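Poly(A) RNA from 24 samples was sequenced with spike-in RNAs. The authors aligned single-end reads to GRCh38/hg38 plus the spike-ins with HISAT2 2.1.0 and made gene counts with featureCounts (Subread 1.5.3, per the submitters' processing notes). The annotation release is not given in the sources used here. The deposited count table holds raw counts without normalization, and the authors' normalized table and their table of fold changes, standard errors, statistics, and p-values were not used. The methods name DESeq2 with RUVSeq without a formula.

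These counts were fitted with edgeR 4.0.16 in R 4.3.3 (TMM factors, filterByExpr with minimum count 10 and total 15, robust quasi-likelihood F test, a mean per group over 24 libraries), with DESeq2 1.42.0 as an alternative. A gene passed when its p, adjusted by Benjamini-Hochberg over 14741 genes, was under 0.05. A difference between the lines is the response in MB468res-R8 less the response in MB468. Depth, 11713037 to 36402932 counts, limits the precision of PRMT9 most. Libraries of a group differed beyond counting noise (chi-square per degree of freedom 2.49 to 9.61), and each was kept. This value cannot tell separate cultures from technical repeats. The code was tested on simulated data. Single values were compared by exact permutation tests (scipy 1.17.1).

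The 9 genes, the lists, and the rule for named genes (all members, per list the 2 called genes with the largest change at 12 h in MB468 and in the difference, and MAT2A, AHCY, MTAP, CLNS1A, RIOK1, COPRS, and PRMT8, and the gene most like each member) were chosen with earlier results of these data known. RN7SK, TAF15, PABPN1, and genes named to give a list's direction fall outside the rule and were named after their values were seen. Some genes that the lists hold are not reported here. Positions and lengths come from GENCODE v44 and promoters from RefSeq (9 of 9 genes matched). Alternatives were other scalings, filters, DESeq2's Wald test, fewer groups, a replicate block, an adjusted p of 0.01, thinning to 11713037 counts (with 4 further draws added after the data were seen), and leaving out each library.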

Additional observations from a re-analysis of the deposited data

Results flagged for a closer look

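The response to Met-Hcy+ medium differed between MB468 and MB468res-R8 (edgeR's quasi-likelihood test of the interaction, Benjamini-Hochberg adjustment over all genes) in 9 instances, given on the log2 scale as MB468res-R8 less MB468. At 12 h the difference was −0.95 for PRMT6, −0.75 for PRMT9, 0.53 for PRMT7, 0.47 for PRMT3, 0.46 for WDR77, 0.44 for PRMT2, 0.38 for PRMT5, and 0.32 for PRMT1. At 0.5 h it was −0.60 for PRMT9. Groups of 3 libraries are too small for the check for a sample far from its group.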

How the results depend on the processing

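The 12 h difference between the lines passed for 8 of the 9 genes in every leave-one-out fit and every thinning draw. Leaving out 1 library at a time gave, in calls among the 9 genes, 4 to 6 for the lines at 0 h, 8 to 9 at 12 h, 2 to 3 at 0.5 h, 1 to 2 at 2 h, and 5 to 7 at 12 h in MB468, 2 to 3 at 0.5 h, 0 at 2 h, and 7 to 9 at 12 h in MB468res-R8, and 0 to 1 for the difference at 0.5 h, 0 at 2 h, and 8 at 12 h. With spike-in totals as library sizes the calls were 5 for the lines at 12 h (against 9, with 58.7% of all genes called against 73.1%), 8 in MB468 at 2 h (against 1, 64.5% against 16.3%), 1 in MB468res-R8 at 0.5 h (against 3, 13.7% against 33.7%), 4 in MB468res-R8 at 12 h (against 8, 39.9% against 61.3%, with PRMT1, PRMT2, PRMT6, and CARM1 lost), 0 for the 0.5 h difference (against 1, 0.685% against 2.9%), and 1 for the 2 h difference (against 0, 6.32% against 5.07%). Of the genes called, 79.2% were higher for the 0.5 h difference (against 41.4%) and 93.0% for the 2 h difference (against 43.2%). That scaling moved the median of all genes by −0.21 at 0.5 h and −0.24 at 12 h in MB468 and by 0.26, 0.38, and 0.26 in the 0.5, 2, and 12 h differences. It turned PRMT2 (−0.20), PRMT3 (−0.12), PRMT6 (−0.11), and PRMT9 (−0.077) at 0 h and PRMT5 (−0.14), PRMT9 (−0.029), and CARM1 (−0.14) in MB468 at 12 h, and PRMT3 (−0.25) in MB468 at 2 h, with no call in the new direction. An adjusted p of 0.01 left 3 calls at 0 h and 0 for the 0.5 h difference, which was also 0 with only the groups compared and in all 5 thinning draws. At 0.01 the count of all genes called moved in 4 comparisons and stayed the same or near it in 7. Thinning lowered the counts of all genes too. Over the 5 draws 6932 to 7013 genes passed at 0 h (against 7883) and 2009 to 2062 in MB468 at 2 h (against 2410). For the differences 315 to 335 passed at 0.5 h (against 428) and 567 to 599 at 2 h (against 747). DESeq2's size factors, its Wald test, and a thinning draw each gave 2 calls among the 9 genes in MB468 at 2 h. Of the 5 thinning draws, the first and the fifth called 1 gene, PRMT6, for the 2 h difference, the fifth called 2 at 0 h, and calls were lost for PRMT2 at 0 h in 4, PRMT6 in MB468res-R8 at 0.5 h in 3, PRMT6 at 0 h and WDR77 in MB468 at 0.5 h in 2 each, and PRMT1 at 0 h, PRMT1 in MB468 at 12 h, PRMT6 in MB468res-R8 at 12 h, and CARM1 between the lines at 12 h in 1 each. PRMT7 at 0 h, near 0 throughout, turned positive in 2 draws (0.011 and 0.013) and ranged from −0.031 to 0.0071 in the leave-one-out fits, the highest without replicate 1 of MB468res-R8, and PRMT9 in MB468 at 12 h turned to −0.025 in a draw. Same-numbered replicates deviated together in some pairs and not in others (correlations of −0.387 to 0.466 over 24 pairs, 9 over 0.1, the highest for replicate 2 of MB468res-R8 at 2 h and 0 h). In 0 of 8 comparisons was every pair over 0.1, or did every sample correlate best with its own number, and a replicate block left the calls, in the order given above, at 5, 9, 3, 1, 6, 3, 0, 8, 1, 0, and 8 and changed no call. Of the 27 counts of called list genes at 12 h, spike-in totals moved 4 and left 23 the same or near it. The causes were not tested.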
